A study of Homo sapiens with 6 samples.

Results

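The BCL2 family genes examined here are BCL2, BCL2L1 and MCL1, which encode proteins that keep cells alive, and BCL2L11, BBC3, PMAIP1, BMF, BAX and BAK1, which encode proteins that promote cell death. They were chosen by name for their place in mitochondrial apoptosis, not by their acetylation, and are 9 of the 20052 protein-coding genes in the RefSeq table used. The region of a gene is its hg19 span, given to the nearest kb, with 10 kb added on either side. The peaks and the covered bases of each region, meaning the bases that lie inside any peak, were counted in every deposited list.

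The cells were wild-type SKOV3, a long-established line from a human ovarian cancer. They received no drug, or were kept for 24 h with vorinostat or with romidepsin, 2 inhibitors of histone deacetylases, each at 1 times its IC50, the concentration that inhibits by 50%. Chromatin carrying histone 3 acetylated at lysine 9 (H3acK9), a mark of active promoters and enhancers, was immunoprecipitated and sequenced from 1 sample per condition, which gave 1 peak list for untreated cells and 2 lists for each treated sample, because, by its label, the sequencing company divided that sample into 2. Elsewhere the study speaks of independent experiments, and both lists are counted here as 1 sample. The 3 input samples, taken without antibody, were not used here.

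Since each condition has 1 sample, differences between them lack replicates, and no test or p-value is given. The only spread available is the gap between both lists of a treated sample, and a treated value is their mean unless a list is named. In such a bulk sample, fewer acetylated cells and less acetylation per cell cannot be told apart. Peak lists hold no read numbers and no RNA levels, so the depth behind each list is unknown, expression of the genes was not measured, and the identity of the cell line was not checked against markers.

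Proteins of the BCL2 family decide at the outer membrane of mitochondria whether a cell enters intrinsic apoptosis. BAX and BAK are the effectors: once active, they form pores through which cytochrome c leaves. BCL2, BCL-XL (from BCL2L1) and MCL1 hold them back, and the BH3-only proteins BIM (BCL2L11), PUMA (BBC3), NOXA (PMAIP1) and BMF bind the pro-survival proteins and so free or activate the effectors. The balance between these classes is often shifted towards survival in carcinomas, and drugs that inhibit histone deacetylases are known to act on the expression of several of the genes.

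The genes lie on 7 chromosomes and their regions differ in length. BCL2 (chromosome 18, 60790 to 60987 kb, minus strand) has the longest region, at 217 kb, and also shares its chromosome with PMAIP1 (57567 to 57572 kb, plus strand, 25 kb). BBC3 (47724 to 47736 kb, minus strand, 32 kb) and BAX (49458 to 49465 kb, plus strand, 27 kb) both lie on chromosome 19. BCL2L1 is on chromosome 20 (30252 to 30311 kb, minus strand, 79 kb), MCL1 on chromosome 1 (150547 to 150552 kb, minus strand, 25 kb), BCL2L11 on chromosome 2 (111878 to 111926 kb, plus strand, 68 kb), BMF on chromosome 15 (40380 to 40401 kb, minus strand, 41 kb) and BAK1 on chromosome 6 (33540 to 33548 kb, minus strand, 28 kb). Most regions also hold parts of other genes, so a peak in a flank need not belong to the named gene. KDSR reaches into the region of BCL2, ACOXL into that of BCL2L11, and FTL, GYS1 and DHDH into that of BAX, whereas the region of PMAIP1 held no other annotated gene.

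The promoters of the genes described in most detail are shown as the 250 bases upstream of the RefSeq start, on the strand of the gene and in build GRCh38.p14, since no hg19 sequence was used. BCL2L11 (chr2:111120664-111120913, plus strand) had the highest romidepsin fold of covered bases, BBC3 (chr19:47232668-47232917, minus strand) had folds on opposite sides of 1 with the 2 drugs, PMAIP1 (chr18:59899746-59899995, plus strand) followed BCL2L11 in the order of romidepsin folds, and BCL2 (chr18:63319770-63320019, minus strand) had the lowest romidepsin fold. Capitals mark a GC box, with the letters GGGCGG, or a CCAAT box, with the letters CCAAT, on either strand, so that they also appear as CCGCCC and ATTGG.
BCL2L11 promoter: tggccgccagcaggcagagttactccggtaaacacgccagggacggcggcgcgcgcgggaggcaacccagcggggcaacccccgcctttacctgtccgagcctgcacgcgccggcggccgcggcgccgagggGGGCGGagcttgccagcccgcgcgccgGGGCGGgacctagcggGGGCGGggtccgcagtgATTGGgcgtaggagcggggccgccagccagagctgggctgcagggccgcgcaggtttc
PMAIP1 promoter: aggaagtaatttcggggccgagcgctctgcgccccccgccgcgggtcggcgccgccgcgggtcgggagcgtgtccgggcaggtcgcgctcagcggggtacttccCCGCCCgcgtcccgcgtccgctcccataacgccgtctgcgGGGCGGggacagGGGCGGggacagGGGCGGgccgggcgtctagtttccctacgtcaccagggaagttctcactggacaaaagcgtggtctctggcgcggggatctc
BBC3 promoter: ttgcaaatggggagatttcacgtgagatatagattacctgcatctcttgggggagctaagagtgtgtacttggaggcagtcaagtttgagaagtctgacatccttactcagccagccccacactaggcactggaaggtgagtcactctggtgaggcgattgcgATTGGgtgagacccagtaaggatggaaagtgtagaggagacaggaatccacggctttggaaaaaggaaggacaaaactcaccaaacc
BCL2 promoter: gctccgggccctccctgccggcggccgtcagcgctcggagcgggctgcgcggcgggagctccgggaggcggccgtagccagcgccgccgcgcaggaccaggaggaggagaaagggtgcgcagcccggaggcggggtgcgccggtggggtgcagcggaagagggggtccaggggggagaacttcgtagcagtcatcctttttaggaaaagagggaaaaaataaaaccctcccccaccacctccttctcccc

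In these windows BCL2L11 held 3 GC boxes and 1 CCAAT box, PMAIP1 4 GC boxes, BBC3 1 CCAAT box and BCL2 none of these letters. The TATA box, with the letters TATAAA, was in none of the 4 windows. Over all 35116 RefSeq promoters of the same 250 bases, 42.6% held a GC box, 32.0% a CCAAT box and 10.7% the TATAAA letters. BCL2L11, PMAIP1 and BCL2 were rich in CG pairs, with 34, 36 and 24 against a median of 11 over all promoters, whereas BBC3 had 4. A match is only a description of the letters. Promoter sequences were found for 8 of the 9 genes, all but MCL1.

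In untreated cells the 9 regions together held 130 of the 376666 peaks, and every gene had acetylated chromatin at or near its 5′ end. BCL2L1 was the most covered region, with 81.4% of its bases in peaks, followed by BMF with 68.6% and BAX with 60.8%. BBC3, MCL1 and PMAIP1 lay close together at 57.0%, 55.5% and 55.4%, and BAK1 at 43.9%. BCL2 and BCL2L11, the genes with the longest bodies beside BCL2L1, were the least covered, at 16.0% and 11.7%. The pro-survival regions were covered over 35.2% of their 321000 bp and the pro-death regions over 43.8% of their 221000 bp.

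**Figure D1:**
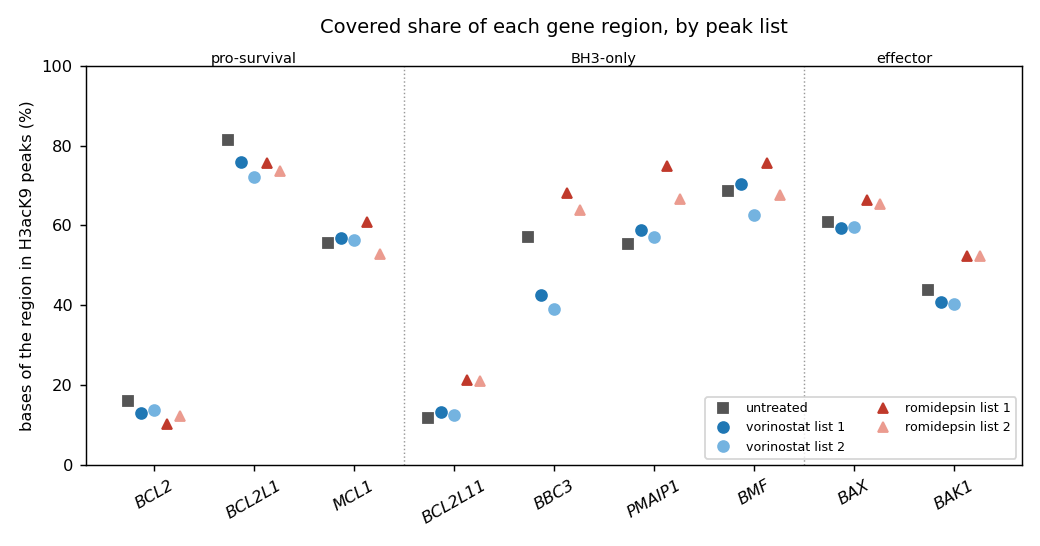
Share of each gene region, in percent of its bases, that lay inside H3acK9 peaks, with 1 point for each of the 5 peak lists (untreated squares, vorinostat circles, romidepsin triangles). BCL2L1 lay highest in untreated cells at 81.4% and BCL2L11 lowest at 11.7%, and both romidepsin lists of BCL2L11, BBC3, PMAIP1, BAX and BAK1 lay above the untreated value.

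Across all lists the treated samples had more, narrower peaks than the untreated sample. The median peak width was 537 bp in untreated cells and 203 to 219 bp in the treated lists, and on the 20 chromosomes with peaks in every list the peak number was 2.42-fold higher with vorinostat and 2.51-fold higher with romidepsin while the covered length was 0.879-fold and 0.967-fold of the untreated length. These genome-wide folds and the shares of 30 kb tiles of the genome with at least 1 untreated peak (66311 tiles) serve below as the background of each member value. The part that the width of the peaks plays in the member values was not tested.

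With all deposited peaks, romidepsin lists covered more of the pro-death regions and less of the pro-survival regions than the untreated list did. Peaks covered 96865 bp of the pro-death regions in untreated cells, 118602 and 111373 bp with romidepsin, and 93537 and 88341 bp with vorinostat. For the pro-survival regions the values were 112850 bp untreated, 97562 and 98212 bp with romidepsin, and 102446 and 101112 bp with vorinostat. Both romidepsin lists thus lay above the untreated value for the pro-death genes and below it for the pro-survival genes, and both vorinostat lists lay below it for both classes. The fold was 1.19 for pro-death and 0.867 for pro-survival regions with romidepsin, and 0.939 and 0.902 with vorinostat. Within the pro-death class the romidepsin fold was 1.21 for the 4 BH3-only genes and 1.13 for the 2 effectors. The direction depended on which peaks were used. Each deposited peak has a score whose scale is not stated, and with peaks scored below 1 left out the romidepsin fold was 0.546 for the pro-death and 0.601 for the pro-survival regions. With peaks joined across gaps of up to 1000 bp it was 1.499 and 1.10.

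All 6 pro-death genes had a romidepsin fold above 1, 5 of them in both lists, against 1 of the 3 pro-survival genes, which was MCL1 and not in both lists. Over the genome 40.4% of the tiles had a romidepsin fold above 1, with a median of 0.875, and the median over the pro-death genes was 1.18 and over the pro-survival genes 0.917. With vorinostat 2 of the 6 pro-death genes and 1 of the 3 pro-survival genes were above 1, against 39.6% of tiles. The medians were then 0.975 for the pro-death genes, 0.908 for the pro-survival genes and 0.864 for the tiles. All members but BCL2 and BCL2L11 had at least 20% of their bases in untreated peaks. Among the 20586 tiles of that kind the share above 1 was 34.7% for romidepsin and 17.0% for vorinostat. Such tiles were selected by untreated cover, the denominator of the fold, which by itself favours folds below 1.

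With all deposited peaks, few members differed by 1.5-fold in covered bases. BCL2L11 alone reached 1.5-fold higher with romidepsin, 1 of 9 genes, where 18.8% of all tiles did, and none of the 9 did with vorinostat, where 21.1% of tiles did. No member was at least 1.5-fold lower with either drug, while 30.5% of the tiles were with vorinostat and 32.5% with romidepsin. Among the tiles with at least 20% untreated cover the shares were lower, at 1.55% and 5.06% higher and 32.8% and 20.0% lower for vorinostat and romidepsin. The member count rests on the choice of peaks, since with peaks scored below 1 left out 7 of 9 members passed 1.5-fold in either direction with each drug, and with peaks joined across 1000 bp 1 did with vorinostat and 4 with romidepsin. In contrast, 9 of 9 members had at least 1.5 times as many peaks with each drug, near the 83.2% of tiles with vorinostat and the 79.3% with romidepsin.

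Among the pro-survival genes BCL2 had the lowest folds. Its region had 34663 covered bp in untreated cells, 28367 and 30147 bp with vorinostat and 22607 and 26812 bp with romidepsin. All 4 treated lists lay below the untreated value, with folds of 0.844 and 0.713, and the romidepsin lists lay below the vorinostat lists. The peaks of chromosome 18 as a whole had folds of 0.887 and 0.948, so the romidepsin fold of BCL2 was lower than that of its chromosome.

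BCL2L1, whose product BCL-XL guards mitochondria against BAX and BAK, differed little between conditions. Peaks covered 64309 bp in untreated cells, 59847 and 56886 bp with vorinostat and 59719 and 58187 bp with romidepsin. Again all 4 treated lists lay below the untreated one, with folds of 0.908 and 0.917, and the lists of the 2 drugs overlapped. The folds of chromosome 20 were 0.934 and 1.05.

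MCL1, which encodes a short-lived survival protein, had 13878 covered bp untreated, 14232 and 14079 bp with vorinostat and 15236 and 13213 bp with romidepsin. The romidepsin lists lay on either side of the untreated value, and the vorinostat lists just above it, at a fold of 1.02. MCL1 was thus the pro-survival gene whose region was not lower with either drug, although within the gene itself, without the flanks, its folds were 0.926 and 0.827.

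Of the BH3-only genes BCL2L11, which encodes the potent killer protein BIM, had the highest folds. Its region had 7964 covered bp untreated, 8981 and 8487 bp with vorinostat and 14433 and 14260 bp with romidepsin. Both romidepsin lists lay far above the other 3 lists, and they differed from each other by only 173 bp. The romidepsin fold was 1.80 and the vorinostat fold 1.10, against 0.926 and 0.868 for chromosome 2.

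BBC3, which encodes PUMA, was lower with one drug and higher with the other. It had 18242 covered bp untreated, 13597 and 12508 bp with vorinostat and 21838 and 20444 bp with romidepsin. The vorinostat lists lay below and the romidepsin lists above the untreated value, with no overlap between the drugs, and the folds were 0.716 and 1.16. The romidepsin fold of all peaks on chromosome 19 was also 1.16, whereas that of vorinostat was 0.882. Without flanks the romidepsin fold of BBC3 was 0.943, so its added cover lay in the flanks.

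PMAIP1 encodes NOXA, a partner of MCL1. Covered bases numbered 13851 untreated, 14693 and 14259 with vorinostat and 18730 and 16636 with romidepsin. Each treated list lay above the untreated value and both romidepsin lists lay highest, with folds of 1.05 and 1.28. The gene body of 5 kb was almost filled by peaks in untreated cells, at 92.8% of its bases, and without flanks the romidepsin fold was 0.937. The upstream flank had 3679 covered bp untreated, 2517 and 3387 bp with vorinostat, and 6070 and 5803 bp with romidepsin.

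BMF, which encodes a BH3-only protein linked to the cytoskeleton, showed no difference beyond the gap between lists. It had 28114 covered bp untreated, 28816 and 25673 bp with vorinostat and 30965 and 27755 bp with romidepsin. The untreated value lay between both lists of either drug.

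With all deposited peaks, both effector genes had higher cover with romidepsin and slightly lower cover with vorinostat. BAX had 16405 covered bp untreated, 16044 and 16117 bp with vorinostat and 17948 and 17642 bp with romidepsin. BAK1 had 12289 bp untreated, 11406 and 11297 bp with vorinostat and 14688 and 14636 bp with romidepsin. For both genes the 2 romidepsin lists lay above and the 2 vorinostat lists below the untreated value. BAX had folds of 0.980 and 1.09, and its romidepsin fold was below the 1.16 of chromosome 19. BAK1 had folds of 0.924 and 1.19, the latter above the 0.880 of chromosome 6. Within the genes alone the romidepsin fold was 0.993 for BAX and 1.03 for BAK1. The vorinostat fold was above 1 under 4 of 9 alternatives for either gene, up to 2.02 for BAX with peaks scored below 1 left out and 1.22 for BAK1 with peaks joined across 1000 bp. The romidepsin fold of BAK1 was 0.0833 with peaks scored below 1 left out.

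The drugs, a hydroxamate (vorinostat) and a cyclic depsipeptide (romidepsin), were given at the same multiple of the IC50 and for the same time, and the covered bases of the 9 regions were set side by side as 9 pairs, with no test. Both romidepsin lists lay above both vorinostat lists for 5 of the 6 pro-death genes and for none of the 3 pro-survival genes. The same held for 36.4% of all 30 kb tiles and for 58.2% of those with at least 20% untreated cover, and over 20 chromosomes the covered length was 1.10 times as long with romidepsin as with vorinostat. BAX was thus near the ratio of the genome. Romidepsin exceeded vorinostat by a ratio of 1.64 at BCL2L11, 1.62 at BBC3, 1.29 at BAK1, 1.22 at PMAIP1 and 1.11 at BAX. The ratio was 0.845 at BCL2, where both romidepsin lists lay below both vorinostat lists. At BCL2L1, MCL1 and BMF the lists of the drugs overlapped, with ratios of 1.01, 1.01 and 1.08.

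At the 5′ ends nearly all genes had less cover after treatment. Within 2 kb on either side of the 5′ end, which is known to the nearest kb, the 9 genes together had 30754 covered bp untreated, 25297 and 24809 bp with vorinostat and 25019 and 24349 bp with romidepsin, a fold of 0.815 and 0.803. With romidepsin 9 of 9 genes were lower there, and with vorinostat 8 of 9, MCL1 being higher at 1.18. Other 5′ ends were not compared, for want of hg19 positions. The background was 52273 tiles of 4 kb with at least 50% untreated cover, a choice made after seeing the data. Of these 84.5% were lower with romidepsin and 89.4% with vorinostat, close to the counts of members. However, the tiles were selected by untreated cover, the denominator of the fold, which by itself favours lower treated values. The member windows were not selected in this way, so this background cannot settle whether they differ from other 5′ ends. The summed folds of the tiles were 0.683 with vorinostat and 0.734 with romidepsin, lower than those of the member windows, with the same limit. The window was filled by untreated peaks at BCL2L1, BBC3, PMAIP1 and BAX, which could thus only fall or stay. No window was filled in any of the 4 treated lists.

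BCL2 had the lowest romidepsin value at the 5′ end, with 3160 covered bp untreated and 1696 and 1910 bp with romidepsin, a fold of 0.571. BCL2L11 had 2292 bp untreated, 1232 bp in both vorinostat lists, and 2245 and 2266 bp with romidepsin. Its cover at the 5′ end was thus 0.538 of the untreated value with vorinostat and 0.984 with romidepsin. BBC3 had 4000 bp untreated, 2599 and 2582 bp with vorinostat, a fold of 0.648, and 3368 and 3505 bp with romidepsin, a fold of 0.859. With a window of 5 kb on either side, 4 genes were lower and 5 higher with romidepsin, and the fold was 1.03 for the pro-death genes and 0.797 for the pro-survival genes.

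Away from the 5′ ends the classes differed. Outside the 2 kb windows the pro-death regions had 76475 covered bp untreated, 77849 and 73129 bp with vorinostat and 101626 and 94455 bp with romidepsin. All 6 pro-death genes were higher there with romidepsin, with a fold of 1.28 over the class and of 2.13 at BCL2L11, 1.44 at PMAIP1, 1.32 at BAK1, 1.24 at BBC3, 1.22 at BAX and 1.06 at BMF. No share was computed for regions cut in the same way, and among whole 30 kb tiles 40.4% were above 1, or 34.7% of those with at least 20% untreated cover. The pro-survival regions outside the windows had a fold of 0.880 with romidepsin, made up of 0.727 at BCL2, 0.920 at BCL2L1 and 1.10 at MCL1. With vorinostat the rest of the region had folds of 0.987 for the pro-death and 0.899 for the pro-survival genes.

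The peaks did not simply grow or shrink, but lay on partly different bases. Of the untreated covered bases of the pro-death regions, 77.8% and 75.5% were also covered with romidepsin and 69.4% and 65.8% with vorinostat. For the pro-survival regions, 64.9% and 64.8% were kept with romidepsin and 65.9% and 66.2% with vorinostat. The genes of this class differed, with romidepsin shares of 27.5% and 31.5% at BCL2, 82.2% and 81.5% at BCL2L1 and 78.0% and 70.1% at MCL1. Among the pro-death genes the romidepsin share was lowest at BCL2L11, at 51.4% and 51.2%. No kept share was computed over the genome. Romidepsin peaks covered 43265 and 38229 bp of the pro-death regions that no untreated peak covered, against 26340 and 24576 bp for vorinostat. In the pro-survival regions the gained bases numbered 24345 and 25131 with romidepsin and 28058 and 26386 with vorinostat.

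**Figure D2:**
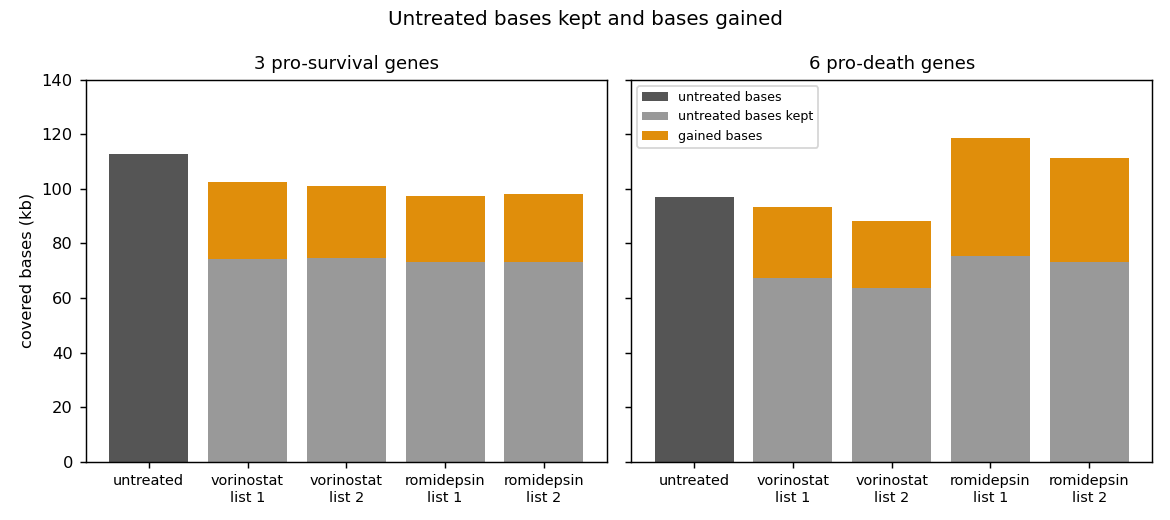
Covered bases, in kb, of the 3 pro-survival (left) and 6 pro-death regions (right) in the untreated list and, for each treated list, split into untreated bases that were kept (grey) and bases outside untreated peaks (orange). In the pro-death regions the romidepsin lists gained 43265 and 38229 bp and the vorinostat lists 26340 and 24576 bp.

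Some bases were particular to a condition. In the pro-death regions 18402 bp were covered in both romidepsin lists and in no other, and 5715 bp in both vorinostat lists and in no other, whereas in the pro-survival regions the numbers were 8039 and 9244 bp. No share of such bases was computed over the genome, so these numbers have no background. The regions also differ in length, with 221000 bp for the pro-death and 321000 bp for the pro-survival class. BCL2L11 held 7148 bp of the romidepsin bases, the most of any member, followed by BCL2 with 4078 bp and BAK1 with 3139 bp. Bases covered in untreated cells only numbered 22775 in the pro-survival regions, of which 16482 lay at BCL2, and 11262 in the pro-death regions. At BCL2 only 26.9% to 33.1% of the untreated bases were covered in a treated list.

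BCL2L11 had its added romidepsin cover along the gene and in both flanks, much of it in new peaks. The gene had 5373 covered bp untreated and 8920 and 8906 bp with romidepsin, and the upstream flank 2591, 3908 and 3929 bp. The downstream flank had 0 bp untreated, 1605 and 1425 bp with romidepsin and 1531 and 1735 bp with vorinostat. With vorinostat the gene and the upstream flank were not higher. The region held 7 untreated peaks, 38 and 31 with vorinostat, and 40 in each romidepsin list. Of the romidepsin peaks 34 of 40 and 35 of 40 shared no base with an untreated peak, and of the vorinostat peaks 30 of 38 and 25 of 31. No such share was computed over all peaks of the treated lists. BCL2, also sparsely covered, had 62.8% and 63.3% of such peaks with romidepsin and 70.7% and 66.7% with vorinostat, and the other members had lower shares. The widest untreated peak of BCL2L11, 3768 bp, began just upstream of the 5′ end and reached 3.70 kb into the gene. It was still covered over 61.5% in both romidepsin lists, but over 35.5% and 19.1% with vorinostat.

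Along BCL2L11 the drugs differed by position. In the 5 kb before the 5′ end there were 1756 covered bp untreated, 2294 and 2254 bp with vorinostat and 3421 and 3442 bp with romidepsin. Between 15 and 20 kb into the gene untreated cells had 0 bp, the vorinostat lists 280 bp each and the romidepsin lists 1461 and 1387 bp. Between 25 and 30 kb, untreated cells again had 0 bp, the vorinostat lists 51 bp each and the romidepsin lists 1091 and 1059 bp. These 2 stretches were thus covered mainly with romidepsin, as was that from 30 to 35 kb, with 543 bp in each romidepsin list and 0 bp with vorinostat. Other stretches of the gene differed. From 20 to 25 kb the vorinostat lists had 325 and 122 bp and the romidepsin lists 0 bp. The drugs were closer from 35 to 40 kb, with 654 and 603 bp against 760 and 764 bp. From 40 to 45 kb the values were 413 bp in each vorinostat list and 373 and 609 bp with romidepsin. At the 3′ end, between 45 and 50 kb, both drugs had more cover than untreated cells, with 489 bp untreated, 2073 and 2142 bp with vorinostat and 2370 and 2401 bp with romidepsin.

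**Figure D3:**
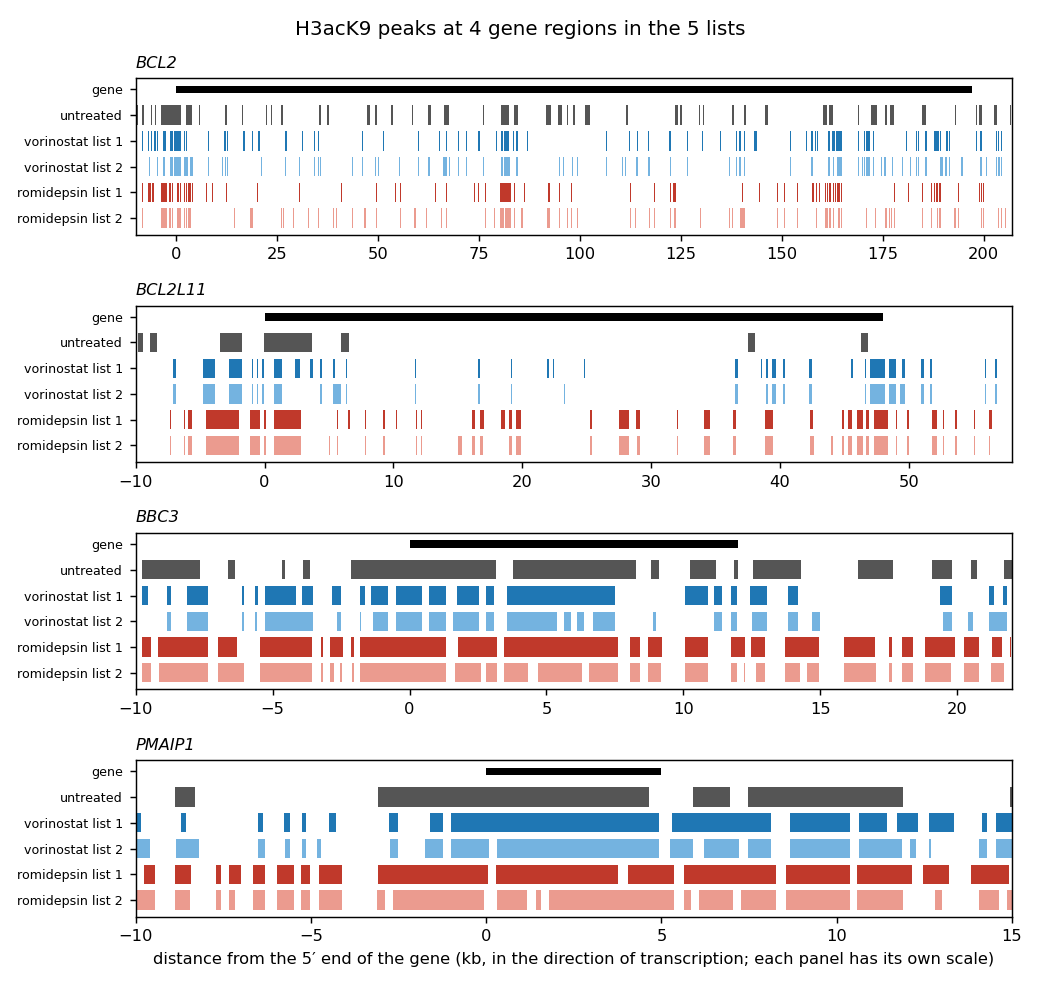
H3acK9 peaks of the 5 lists at BCL2, BCL2L11, BBC3 and PMAIP1, drawn to scale by distance from the 5′ end in kb (each panel has its own scale), with the gene as a black bar above. At BCL2L11 the untreated list has 7 peaks and each romidepsin list 40, while at BBC3 the wide untreated peak over the 5′ end is broken into 6 pieces with vorinostat and 3 and 4 with romidepsin.

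The other wide untreated peaks were mostly kept, but in pieces. At BCL2L1 a peak of 16292 bp, from -3.10 to 13.2 kb relative to the 5′ end, was covered over 84.8% to 88.4% in the treated lists, in 6 to 9 peaks. At MCL1 a peak of 6256 bp over the whole gene was covered over 91.0% and 93.0% with vorinostat and 81.9% and 73.3% with romidepsin. At BBC3 a peak of 5321 bp over the 5′ end was covered over 64.2% and 63.9% with vorinostat and 87.5% and 85.6% with romidepsin. A peak of 7740 bp at PMAIP1 was covered over 81.1% and 79.6% with vorinostat and 93.1% and 85.9% with romidepsin. The widest peaks of BAX and BAK1 did not lie over the 5′ end. That of BAX was covered over 92.3% and 96.7% with vorinostat and 79.6% and 79.9% with romidepsin. At BAK1 the shares were 79.1% and 79.9%, then 87.6% and 84.2%. They were 91.5% and 87.9%, then 86.9% and 88.95% at BMF, and 65.4% and 60.6%, then 59.4% and 63.7% at BCL2. BBC3, PMAIP1 and BAK1 thus kept more of these peaks with romidepsin, and MCL1 and BAX with vorinostat. At BCL2L1, BMF and BCL2 the lists of the drugs overlapped.

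Peak numbers were higher at every member, as they were over most of the genome. The 9 regions held 130 peaks in untreated cells, 296 and 309 with vorinostat and 303 and 342 with romidepsin. The fold of the peak number was 2.00 and 2.14 for the pro-survival and 2.82 and 3.0 for the pro-death regions, for vorinostat and romidepsin in turn. It was highest at BCL2L11, at 4.93 and 5.71, and BAX, at 4.30 and 4.60. The mean covered length per peak was 1613 bp in untreated cells and 613 to 713 bp in the treated lists. Between both lists of a treated sample, 64 vorinostat peaks and 79 romidepsin peaks in these regions had the same start and end.

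The choice of peaks also moved single genes. With peaks scored below 1 left out, PMAIP1 and BMF had romidepsin folds of 0.0834 and 0.102, while BCL2L11 was at 4.77, BBC3 at 1.03, BAX at 2.29, MCL1 at 12.6 and BCL2 at 0.214. With peaks joined across gaps of up to 1000 bp the vorinostat and romidepsin folds were above 1 for BCL2, at 1.30 and 1.06, and for BCL2L1, at 1.03 and 1.09. For the gene bodies without flanks the pro-death romidepsin fold was 1.08, with BBC3, PMAIP1 and BAX below 1. BCL2L11 was above 1 with romidepsin under all 9 alternatives, between 1.62 and 4.77.

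The other genes of the pathway are given by counts. Of 8 further family members 6 had spans that passed the length check. BCL2L10 and BIK were above 1 with each drug, 2 of 6 genes, although BIK had 11880 covered bp untreated and a mean of 11885 bp with vorinostat, and the medians were 0.874 and 0.988. By class, 1 of 3 pro-survival genes (BCL2L10) and 1 of 3 pro-death genes (BIK) were above 1 with romidepsin, with medians of 0.723 and 0.992. The counts of the classes were thus equal here, unlike among the 9 members. Downstream of the family, among genes for the apoptosome, caspases and the proteins that block or free them, none of 9 was above 1 with vorinostat and 3 of 8 were with romidepsin, with medians of 0.743 and 0.882. The romidepsin counts and the downstream median were near those of the tiles, of which 40.4% were above 1 with a median of 0.875, and with vorinostat 39.6% of tiles were above 1 with a median of 0.864. XIAP, on the X chromosome where the romidepsin lists hold no peak, has no romidepsin value.

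Of the 14 other genes with a value for both drugs, 2 were at least 1.5-fold higher or lower, in the same direction, with both. The share of tiles that did so with both drugs was not computed. With a single drug 18.8% to 21.1% of tiles were higher and 30.5% to 32.5% lower. Within a single direction, a rule for both drugs cannot exceed the smaller of these shares. The count of 2 genes pools both directions, so these shares are not its background. BCL2L10, a further pro-survival gene, had 1777 covered bp untreated, 4933 and 4820 bp with vorinostat and 5972 and 5479 bp with romidepsin, folds of 2.74 and 3.22. CYCS, the gene for cytochrome c, had 9115 bp untreated, 5210 and 4395 bp with vorinostat and 4940 and 4869 bp with romidepsin, folds of 0.527 and 0.538. At CYCS all 4 treated lists lay below the untreated list, and at BCL2L10 all 4 lay above it.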

How the data were processed

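H3acK9 ChIP-seq peak lists of 3 samples were analysed. According to the submitters' processing notes BWA and MACS 1.4.2 were used. The authors deposited the chromosome, start, end and a score for each peak. The scale of this deposited score is not given in the sources used here, nor whether Drosophila spike-in chromatin entered the values, so it served only as a filter. The notes name hg38, but peak ends reach 249238565 on chromosome 1, beyond its hg38 length of 248956422, and coordinates are therefore given as hg19, with none converted. Depth per list is unknown.

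Peaks of a list were used as deposited and taken not to overlap, and were joined only in the alternatives that say so. Strands came from GENCODE release 44 and sequences from RefSeq. A fold is the mean of both lists over the untreated value. Tiles of 30 kb with at least 1 untreated peak on the 20 chromosomes with peaks in every list gave the background. These chromosomes held 352674 of the 376666 untreated peaks. They held 884969 of 896878 peaks of romidepsin list 1 and 884230 of 884242 of romidepsin list 2. The romidepsin lists thus had few peaks on other chromosomes, for a reason that was not tested, and those chromosomes entered no tile share or genome-wide fold. Python 3.11.15, NumPy 2.4.6, pandas 2.3.3 and Matplotlib 3.10.9 were used. The counting was tested on simulated data and recovered 16 of 16 settings. The spans of 17 further pathway genes were entered from general knowledge to the nearest kb and kept where their length was within 2 kb or 10% of the RefSeq length, which left out HRK and BOK. Some genes of the pathway are not reported here and entered no count. All 9 members are named, and of the further genes those changed at least 1.5-fold in the same direction with both drugs. Members and lists of genes were chosen with earlier results of these data known. Alternatives were each list alone, filters on score and width, joining of peaks, other flanks, windows and tiles, and scaling to the genome.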

Additional observations from a re-analysis of the deposited data

How the results depend on the processing

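No paired analysis was possible because there was 1 sample per condition and no result comes from a test. Values follow in the order vorinostat, romidepsin. Depth per list is unknown, and the cause of each shift was not tested. The romidepsin fold of covered bases was higher for pro-death than pro-survival regions under 11 of 12 settings and above 1 for the pro-death regions under 11 of 12, the exception being the score filter. With vorinostat these counts were 9 of 12 and 3 of 12. The settings are not independent. They include the reported one and each list alone, and scaling to the genome cannot change the order of the classes.

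Covered-base folds of the pro-survival regions were 0.691 and 0.601 with scores of at least 1, 0.876 and 0.839 with widths of at least 150 bp, 0.966 and 0.967 with peaks joined across 300 bp, 1.11 and 1.10 across 1000 bp, 0.933 and 0.873 without flanks, 0.879 and 0.927 with 25 kb flanks, 1.03 and 0.897 scaled to the genome, and 0.928 and 0.936 without BCL2. Their romidepsin median over genes was 0.917. Those of the pro-death regions were 0.420 and 0.546 with the score filter, 1.03 and 1.32 joined across 300 bp and 1.24 and 1.499 across 1000 bp. Scaled to the genome the vorinostat fold was 1.07. The romidepsin fold was 1.08 without flanks and 1.25 without BMF.

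Peak-number folds of the pro-survival regions were 1.34 and 1.10 with the score filter, 1.62 and 1.70 with the width filter, 1.62 and 1.56 joined across 300 bp, 1.12 and 1.05 across 1000 bp, 2.27 and 2.396 with 25 kb flanks, and 2.24 and 2.91 without BCL2. With vorinostat they were 2.12 without flanks, 2.28 scaled to the genome and 1.87 as a median. For the pro-death regions they were 1.81 and 2.33 with the score filter, 2.09 and 2.45 with the width filter, 2.14 and 1.98 joined across 300 bp, 1.27 and 1.03 across 1000 bp, 2.54 and 2.80 with 25 kb flanks, 3.13 and 3.34 without BMF, and 3.29 and 3.28 as a median. With vorinostat they were 2.46 without flanks and 3.21 scaled to the genome.

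The number of members past 1.5-fold in covered bases was 7 and 7 with the score filter and 1 and 4 joined across 1000 bp, and with romidepsin 2 from list 1 alone and 2 with the width filter. Covered bases at the 5′ ends had folds of 0.830 and 0.746 within 1 kb and 0.840 and 0.946 within 5 kb. The share of tiles at least 1.5-fold higher was 19.3% and 21.2% for 10 kb tiles, 22.1% and 15.5% for 100 kb tiles, and 1.55% and 5.06% for tiles with at least 20% untreated cover. The share at least 1.5-fold lower was 41.1% and 38.9%, 19.2% and 24.6%, and 32.8% and 20.0%.

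Alternatives for the bases kept were chosen after seeing the data. The kept share of the pro-survival regions was 14.8% and 7.71% with the score filter, 65.4% and 64.0% with the width filter, 69.7% and 71.7% joined across 300 bp, and 79.1% and 81.8% across 1000 bp. For the pro-death regions it was 16.2% and 16.2%, then 74.1% and 83.9% joined across 300 bp and 87.4% and 95.9% across 1000 bp.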
